A study of Homo sapiens with 10 samples.

Results

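Hypoxia response and glycolysis genes were examined by bulk poly(A) RNA sequencing in the human meningioma line CH157-MN. The set holds 35 genes, picked by symbol from the 58735 rows of the gene table: 2 subunits of the hypoxia-inducible factor HIF, 15 HIF-regulated genes and 18 genes of glycolysis, counting the kinase-phosphatases that regulate it and lactate dehydrogenase. The ADC group is 5 libraries from cells given a humanized SSTR2-MMAF antibody-drug conjugate at 100 nM and harvested at day 3. Its control, PBS, is 5 libraries from the same line given phosphate-buffered saline. MMAF is an auristatin payload that blocks tubulin polymerisation, and SSTR2 is the somatostatin receptor the antibody binds. The labels name no separate cultures and no day for the PBS cells, and the material is a single cell line with no normal arachnoid cells beside it.

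HIF is a transcription factor made of an oxygen-regulated alpha subunit and the stable partner ARNT. When oxygen is present, prolyl hydroxylases of the EGLN family mark the alpha subunit, the VHL ubiquitin ligase removes it, and the asparaginyl hydroxylase FIH (HIF1AN) blocks what remains. In hypoxia the factor accumulates and binds the core sequence ACGTG or GCGTG near its target genes, which include secreted signals, mitochondrial and histone-modifying proteins and most enzymes of glycolysis. HIF alpha is controlled mainly at the protein level, which RNA counts do not measure.

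To show the sequence that such a factor reads, the 250 bases before the RefSeq start (GRCh38.p14) are given for the called members with the smallest adjusted p that hold a match, leaving out genes with no entry in the table. Capitals mark ACGTG on either strand (CACGT where it lies on the other strand).
ENO2, chr12:6914330-6914579, plus strand: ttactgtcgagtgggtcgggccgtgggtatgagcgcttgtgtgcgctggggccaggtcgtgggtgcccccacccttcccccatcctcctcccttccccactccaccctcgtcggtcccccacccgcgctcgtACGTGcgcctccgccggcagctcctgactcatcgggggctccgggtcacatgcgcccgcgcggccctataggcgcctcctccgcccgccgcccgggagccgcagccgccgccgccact
LDHA, chr11:18394313-18394562, plus strand: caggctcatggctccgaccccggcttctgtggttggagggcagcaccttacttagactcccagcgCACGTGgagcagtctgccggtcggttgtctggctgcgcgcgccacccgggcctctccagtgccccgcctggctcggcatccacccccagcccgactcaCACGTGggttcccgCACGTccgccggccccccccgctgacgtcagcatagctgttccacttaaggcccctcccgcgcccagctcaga
ANGPTL4, chr19:8363905-8364154, plus strand: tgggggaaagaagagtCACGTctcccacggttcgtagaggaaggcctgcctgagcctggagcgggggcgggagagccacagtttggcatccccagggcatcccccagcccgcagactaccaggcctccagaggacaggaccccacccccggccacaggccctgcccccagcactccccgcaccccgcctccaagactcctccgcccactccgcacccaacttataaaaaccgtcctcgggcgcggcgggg
The ENO2 match begins 118 bases and the ANGPTL4 match 234 bases before the start. The LDHA window holds matches at 3 places, counted as 5 because the palindrome CACGTG reads as ACGTG on both strands. The deposited gene models of these genes begin upstream of the RefSeq start, at 6913745 for ENO2, 18394388 for LDHA and 8363289 for ANGPTL4, so the windows overlap longer transcripts.

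Promoter entries were found for 32 of the 35 members. ACGTG was present on either strand in 7 of 12 windows of HIF-regulated genes and in 8 of 18 windows of glycolytic genes, beside 23.9% of the 10054 windows of tested genes and 18.5% of all 35116 windows. GCGTG was present in 3 of 12 and 7 of 18 windows, beside 45.7% of the windows of tested genes. Either core was present in 8 of 11 windows of members that rose and in 13 of 18 windows of tested members that fell or were not called, beside 57.8% of the windows of tested genes and 43.2% of all windows. A match describes letters only and is not a bound site.

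Total counts were 28638057 to 36463724 per ADC library and 28262162 to 34473795 per PBS library, and mitochondrial transcripts took 1.30% to 2.11% of ADC counts and 1.19% to 2.63% of PBS counts. Values are given as CPM, counts scaled by library total and TMM factor. A count of 0 allows up to 3 counts, which is 0.0823 to 0.106 CPM in these libraries and covers counting error only. Of 8 meningioma and arachnoid markers, VIM averaged 3538 CPM in ADC and 3398 CPM in PBS libraries and CLDN11 364 CPM in ADC and 389 CPM in PBS libraries, PGR had no count in any library, and SSTR2, MUC1, PTGDS, DSP and CDH1 averaged under 1 CPM. The 12 leukocyte markers summed to 2.05 to 3.01 CPM in ADC and 0.579 to 2.64 CPM in PBS libraries, with CD3E, CD3D, MS4A1, LYZ and NKG7 at 0 throughout. The 8 endothelial markers summed to 6.58 to 8.01 CPM in ADC and 5.60 to 6.15 CPM in PBS libraries, and the groups did not overlap. The difference lay mostly in PECAM1, at 1.98 ± 0.34 CPM in ADC and 0.576 ± 0.112 CPM in PBS (SD, n = 5 each). CDH5 had 2, 4, 2, 7 and 4 counts in ADC libraries and 0 in every PBS library, so its groups were separate as well. EGFL7 averaged 3.15 CPM in ADC and 3.31 CPM in PBS libraries, KDR 1.49 CPM in ADC and 1.51 CPM in PBS libraries and VWF 0.396 CPM in ADC and 0.301 CPM in PBS libraries, and their groups overlapped. TEK, ERG and CLDN5 averaged at most 0.0465 CPM in ADC and 0.102 CPM in PBS libraries. The part of these markers in the results was not tested. In bulk RNA fewer cells of a kind and less RNA per cell cannot be told apart.

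The comparison asks how these genes differed between treated and control cells. Most HIF-regulated genes rose by small amounts, and most glycolytic enzymes were not called. Of 15 HIF-regulated genes 13 had enough counts to be tested, of which 10 rose, 0 fell and 3 were not called, with a median log2 fold change of 0.30. Of 18 glycolytic genes 17 were tested, of which LDHA, ENO2, GAPDH and PKM rose, HK2 and PFKM fell and 11 were not called, with a median of 0.0068. Neither HIF1A nor EPAS1 was called. Called means an adjusted p under 0.05 in edgeR's quasi-likelihood test with Benjamini-Hochberg adjustment over all 14504 tested genes, two-sided, and every adjusted p below is from that test.

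Over all tested genes 20.8% were called, 10.8% higher and 10% lower in ADC, and the median log2 fold change was -0.0022. Among the 8874 genes with a mean of at least 10 CPM, a level chosen after seeing the data, the share was 28%, 13% higher and 15.1% lower. At that level 9 of 11 HIF-regulated genes and 6 of 15 glycolytic genes were called. No test was made of the difference between the lists. The largest change among the called members was 1.66-fold.

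**Figure D1:**
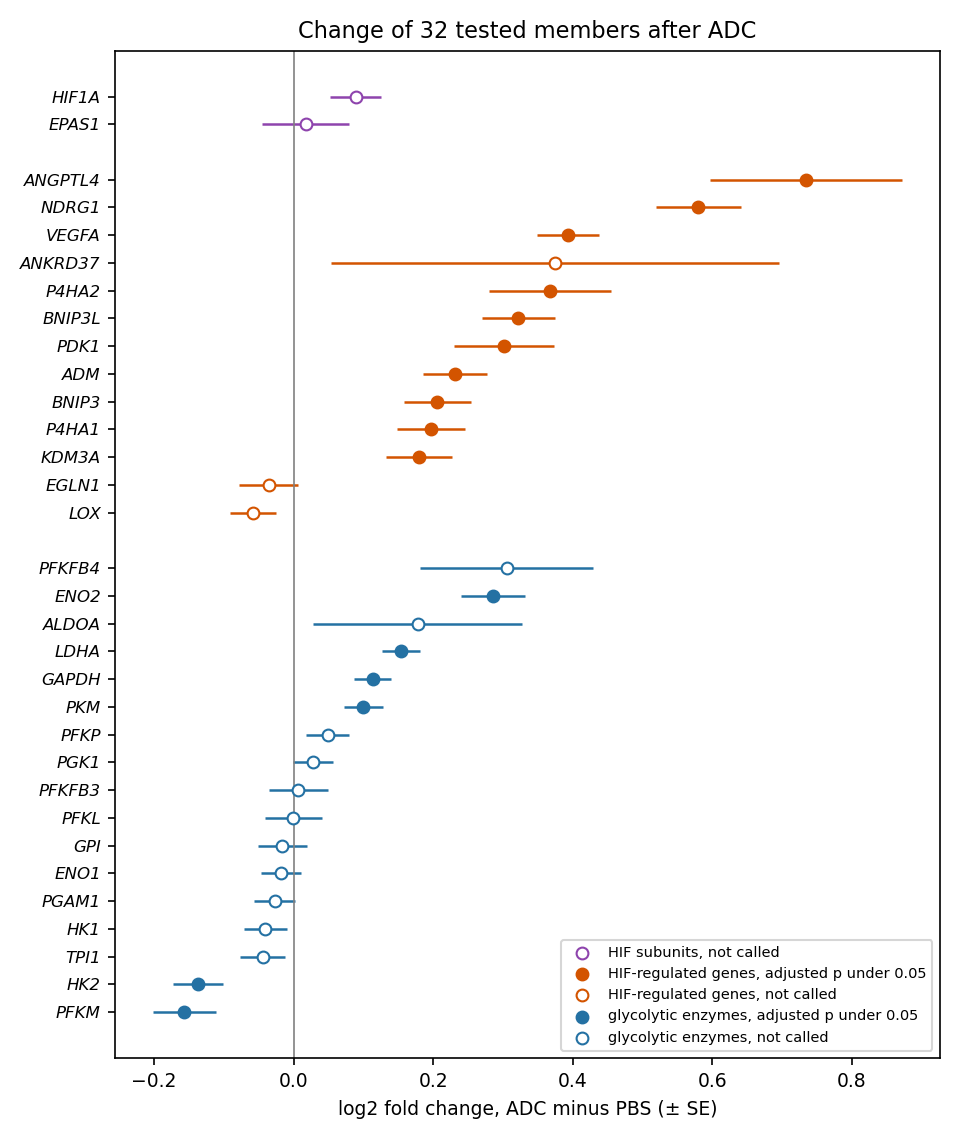
Log2 fold change of each tested gene (ADC minus PBS, horizontal axis) with its standard error as a bar; filled points passed the test at an adjusted p under 0.05. The 10 called HIF-regulated genes all lie right of 0, between 0.18 and 0.73, while glycolytic genes spread around 0 between -0.16 and 0.31.

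The HIF alpha subunits come first in the pathway. HIF1A, the widely expressed alpha subunit, had 214, 216, 202, 194 and 202 CPM in ADC libraries, against 204, 183, 190, 201 and 189 CPM in PBS libraries. The groups overlapped, and the log2 fold change of 0.09 (SE 0.04, adjusted p = 0.085) did not pass. It passed when counts were scaled to library size alone (0.11, adjusted p = 0.035), without ADC replicate 4 (0.11, adjusted p = 0.030) and without PBS replicate 1 (0.11, adjusted p = 0.048). EPAS1, which encodes HIF-2 alpha, averaged 31.7 ± 2.5 CPM in ADC and 31.3 ± 1.7 CPM in PBS libraries (SD, n = 5 each), with a log2 fold change of 0.02 (SE 0.06, adjusted p = 0.89). Per kilobase of gene model HIF1A stood at 39.9 CPM in ADC and 37.6 CPM in PBS libraries, and EPAS1 at 4.35 CPM in ADC and 4.29 CPM in PBS libraries.

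NDRG1 and the secreted products VEGFA and ANGPTL4 had the 3 largest changes among HIF-regulated genes. NDRG1, a stress-responsive gene linked to differentiation and lipid trafficking, had 55.9, 46.9, 51.7, 50.8 and 47.4 CPM in ADC libraries, against 32.02, 34.7, 33.4, 30.6 and 38.3 CPM in PBS libraries. Every ADC value lay above every PBS value, as for 7.29% of all tested genes, and the log2 fold change was 0.58 (SE 0.06, adjusted p = 1.9e-08). VEGFA, the main angiogenic growth factor, had 155, 129, 133, 147 and 130 CPM in ADC libraries, against 108, 101, 105, 107 and 108 CPM in PBS libraries. The groups were separate (log2 fold change 0.39, SE 0.04, adjusted p = 8.2e-08), and the ADC libraries spread more widely, with an SD of 11.8 CPM in ADC and 2.74 CPM in PBS.

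ANGPTL4, a secreted inhibitor of lipoprotein lipase, was expressed at a lower level but changed most, with 7.17, 9.57, 7.90, 8.21 and 11.8 CPM in ADC libraries, against 4.70, 5.07, 6.51, 4.17 and 6.33 CPM in PBS libraries. Its log2 fold change was 0.73 (SE 0.14, adjusted p = 0.00021). ADM encodes adrenomedullin, a vasodilator peptide, and had 96.7, 91.7, 99.3, 90.5 and 103 CPM in ADC libraries, against 83.3, 90.0, 81.0, 77.1 and 78.6 CPM in PBS libraries. The groups only just failed to touch, at 90.5 CPM for the lowest ADC and 90.0 CPM for the highest PBS library (log2 fold change 0.23, SE 0.05, adjusted p = 0.00037).

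Among the listed HIF-regulated genes, BNIP3L, BNIP3 and PDK1 act at mitochondria, and all of them rose. BNIP3L, a receptor that marks mitochondria for autophagy, had 81.4, 69.3, 69.2, 67.5 and 63.9 CPM in ADC libraries, against 55.1, 56.4, 59.2, 54.5 and 55.9 CPM in PBS libraries (log2 fold change 0.32, SE 0.05, adjusted p = 3.2e-05). Of its exonic bases 7.66% lie opposite PNMA2, which had 787 to 1044 counts per ADC library and 675 to 814 counts per PBS library. Its paralog BNIP3, with the same role, had 127, 97.5, 107, 108 and 104 CPM in ADC libraries, against 94.8, 92.8, 92.8, 95.8 and 94.9 CPM in PBS libraries (log2 fold change 0.21, SE 0.05, adjusted p = 0.0023). ADC replicate 1 was the highest library for both, and the groups did not overlap for either. PDK1, the kinase that shuts pyruvate dehydrogenase and so keeps pyruvate out of the citric acid cycle, had 30.2, 24.9, 28.7, 26.1 and 25.6 CPM in ADC libraries, against 22.4, 19.4, 22.5, 23.9 and 21.9 CPM in PBS libraries (log2 fold change 0.30, SE 0.07, adjusted p = 0.0026).

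Among tested members that use oxygen to modify proteins, the collagen prolyl hydroxylases and a histone demethylase rose, while EGLN1 and LOX were not called. P4HA2 had 24.2, 18.2, 19.0, 18.6 and 18.8 CPM in ADC libraries, against 16.1, 16.01, 13.05, 14.5 and 16.7 CPM in PBS libraries (log2 fold change 0.37, SE 0.09, adjusted p = 0.0027). P4HA1 had 78.4, 65.9, 76.2, 74.1 and 73.1 CPM in ADC libraries, against 63.4, 62.7, 59.5, 65.6 and 69.5 CPM in PBS libraries. It was the called HIF-regulated gene whose groups overlapped (log2 fold change 0.20, SE 0.05, adjusted p = 0.0041). KDM3A, which removes methyl groups from histone H3 lysine 9, was the most even, with 48.9, 46.5, 48.5, 47.7 and 47.9 CPM in ADC libraries, against 41.4, 41.8, 43.5, 42.4 and 42.4 CPM in PBS libraries (log2 fold change 0.18, SE 0.05, adjusted p = 0.0064).

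**Figure D2:**
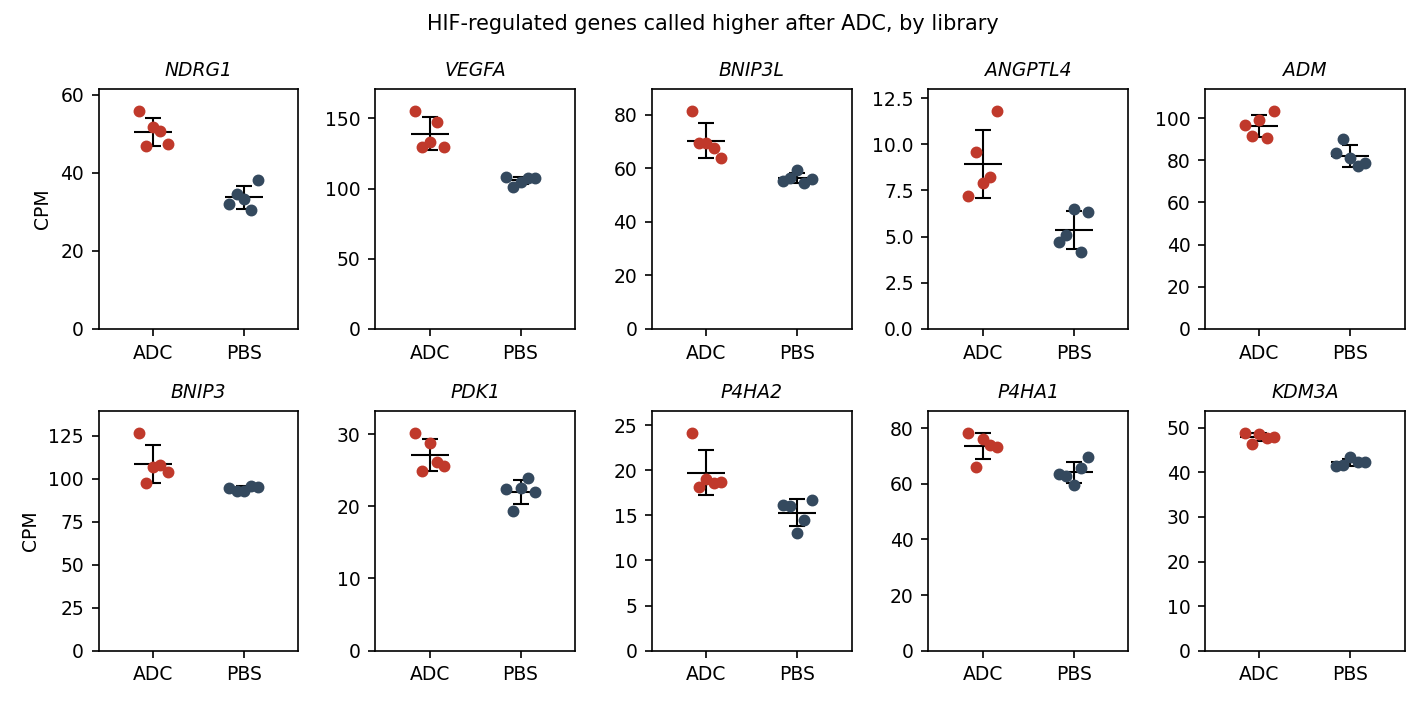
TMM-scaled CPM of the 10 called HIF-regulated genes in each library (points), with the mean and SD of 5 libraries, ADC left and PBS right; axes start at 0. All groups are separate except for P4HA1, and ADC replicate 1, the leftmost ADC point, is the highest for NDRG1, VEGFA, BNIP3L, BNIP3, PDK1, P4HA2, P4HA1 and KDM3A.

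The remaining HIF-regulated genes gave no call. EGLN1, the main oxygen-sensing prolyl hydroxylase, averaged 96.6 ± 6.4 CPM in ADC and 99.0 ± 2.8 CPM in PBS libraries (log2 fold change -0.04, SE 0.04, adjusted p = 0.61), and LOX, the collagen cross-linking lysyl oxidase, averaged 208 ± 6 CPM in ADC and 217 ± 7 CPM in PBS libraries (-0.06, SE 0.03, adjusted p = 0.23; SD, n = 5 each). The 95% intervals of these log2 fold changes ran from -0.12 to 0.05 for EGLN1 and from -0.12 to 0.0067 for LOX. ANKRD37 was low, with 40 to 61 counts per ADC library and 9 to 56 counts per PBS library, and its log2 fold change of 0.37 (SE 0.32, adjusted p = 0.46) did not pass. It was 0.15 without PBS replicate 4 and 0.56 without PBS replicate 5. Of its exonic bases 35.2% lie opposite UFSP2, which had 605 to 928 counts per ADC library and 641 to 760 counts per PBS library, and the counting is not stated to use strand.

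CA9 and EGLN3 failed the filter on low counts. CA9, the cell-surface carbonic anhydrase often used as a hypoxia marker, had 21 counts in ADC replicate 1 and 0 in each of the other libraries. EGLN3, a prolyl hydroxylase, had 10 counts in ADC replicate 3, 6 in ADC replicate 4 and 0 in the other 8 libraries. With no filter both received an adjusted p under the threshold, 0.018 for CA9 and 0.049 for EGLN3, but the counts came from a single library for CA9 and a pair of libraries for EGLN3. No fold is given.

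The HIF-regulated genes together summed to 905 to 1016 CPM in ADC libraries and 827 to 854 CPM in PBS libraries. ADC replicate 1 held the highest value of 8 of the 13 tested genes, and its median log2 distance from the PBS means was 0.42, against 0.18 to 0.30 in the other ADC libraries. Without that library 10 of 13 genes were still called and the median log2 fold change was 0.26. The coefficient of variation was larger in ADC for 9 of the 13 genes, with medians of 8.36% in ADC and 5.77% in PBS.

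Glycolytic genes spanned a wide range of levels. The gene model length takes in every annotated exonic base, so ranks between genes are approximate. LDHA averaged 2350 CPM in ADC libraries and TPI1 1265 CPM, but per kilobase LDHA stood at 378 CPM and TPI1 at 469 CPM. Per kilobase of gene model GAPDH was the highest, at 1575 CPM in ADC and 1456 CPM in PBS libraries, followed by ENO1 (875 CPM in ADC and 886 CPM in PBS), PKM (532 CPM in ADC and 496 CPM in PBS) and TPI1 (469 CPM in ADC and 483 CPM in PBS). HK1, a hexokinase of the first step, stood at 89.3 CPM per kilobase in ADC and 91.8 CPM in PBS libraries, and PFKP at 88.9 CPM in ADC and 85.9 CPM in PBS libraries. The lower isoforms were HK2 (26.2 CPM in ADC and 28.8 CPM in PBS), PFKM (14.3 CPM in ADC and 15.9 CPM in PBS), PFKL (13.4 CPM in both groups) and ENO2 (16.9 CPM in ADC and 13.8 CPM in PBS).

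**Figure D3:**
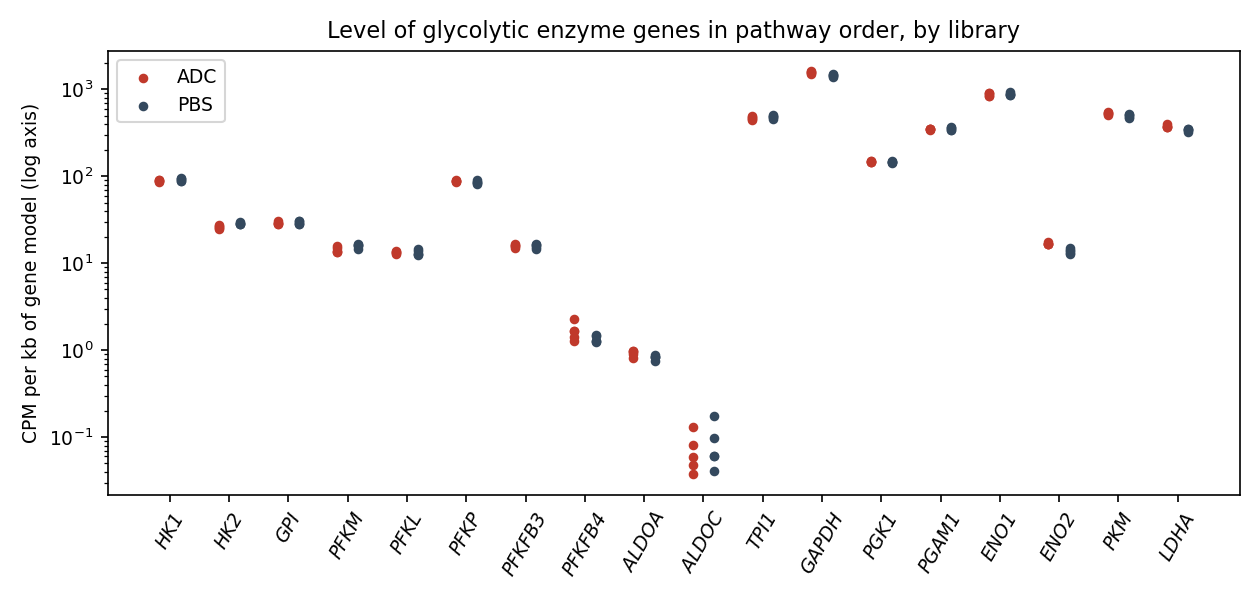
CPM per kilobase of gene model (log axis) for 18 glycolytic genes in pathway order, 1 point per library, ADC left of PBS for each gene. Levels differ far more between genes, from about 1575 CPM for GAPDH in ADC to under 1 CPM for ALDOA and ALDOC, than between the groups. The ALDOA level is not reliable, as the text on the aldolase step says.

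The aldolase step is not measured reliably here. ALDOA had 91 to 131 counts per ADC library and 83 to 116 counts per PBS library, or 3.65 ± 0.28 CPM in ADC and 3.22 ± 0.18 CPM in PBS (SD, n = 5 each), while PFKM before it in the pathway averaged 104 CPM in ADC libraries and TPI1 after it 1265 CPM. In GENCODE release 29, 42.3% of its exonic bases also belong to AC093512.2 on the same strand and 13.3% to genes on the other strand, and AC093512.2 itself had 31 to 66 counts per ADC library and 12 to 47 counts per PBS library. How the counting treated reads shared by such genes is not given in the sources used here, and its part in the low value was not tested. ALDOA was kept among the tested glycolytic genes and was not called (log2 fold change 0.18, SE 0.15, adjusted p = 0.45). ALDOC, the brain isoform, had 4 to 13 counts per ADC library and 4 to 15 counts per PBS library and was not tested.

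The enzymes that rose sit mainly at the lower end of the pathway, where PGK1, PGAM1 and ENO1 were not called. LDHA, which turns pyruvate into lactate, had 2453, 2324, 2310, 2284 and 2381 CPM in ADC libraries, against 2035, 2159, 2106, 2096 and 2171 CPM in PBS libraries. The groups were separate, with a log2 fold change of 0.15 (SE 0.03, adjusted p = 0.00011). ENO2, the neuronal enolase, had 75.5, 72.0, 70.7, 71.2 and 71.4 CPM in ADC libraries, against 61.2, 63.8, 54.8, 59.1 and 56.9 CPM in PBS libraries. It had the largest change among the called enzymes (log2 fold change 0.29, SE 0.05, adjusted p = 2.5e-05), and its groups were separate.

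GAPDH, the dehydrogenase of the middle step and a common normalisation gene, had 4596, 4732, 4743, 4541 and 4867 CPM in ADC libraries, against 4196, 4546, 4352, 4235 and 4378 CPM in PBS libraries. Its lowest ADC value lay just under its highest PBS value, and the log2 fold change was 0.11 (SE 0.03, adjusted p = 0.0021). The 62 rows named as GAPDH copies held 0.802% of the counts of gene and copies together, and 14.2% of its exonic bases lie opposite AC006064.4, which had no count. PKM, the pyruvate kinase whose splice forms are summed here, had 4533, 4635, 4512, 4353 and 4751 CPM in ADC libraries, against 4064, 4481, 4301, 4087 and 4324 CPM in PBS libraries (log2 fold change 0.10, SE 0.03, adjusted p = 0.011). Those groups overlapped.

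HK2 and PFKM, which act in the upper part of the pathway, fell, while HK1, PFKL and PFKP of the same steps were not called. HK2, the inducible hexokinase and a classical HIF target, had 169, 152, 159, 161 and 152 CPM in ADC libraries, against 170, 172, 177, 173 and 181 CPM in PBS libraries. Every ADC value lay below every PBS value, as for 6.95% of all tested genes (log2 fold change -0.14, SE 0.04, adjusted p = 0.0055). PFKM, the muscle-type phosphofructokinase, had 98.4, 100.4, 109, 98.6 and 116 CPM in ADC libraries, against 119, 118, 107, 115 and 122 CPM in PBS libraries. The groups overlapped (log2 fold change -0.16, SE 0.05, adjusted p = 0.012), and 8.58% of its exonic bases lie opposite SENP1. SENP1 had 1024 to 1421 counts per ADC library and 1314 to 1599 counts per PBS library and also fell (log2 fold change -0.23, SE 0.05, adjusted p = 0.0017). The counting is not stated to use strand, and the part of this overlap in the lower PFKM counts was not tested. PGAM2, another glycolytic isoform singled out for its overlap, has all its exonic bases opposite DBNL and had no count in any library. DBNL had 3395 to 4578 counts per ADC library and 3618 to 4833 counts per PBS library.

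**Figure D4:**
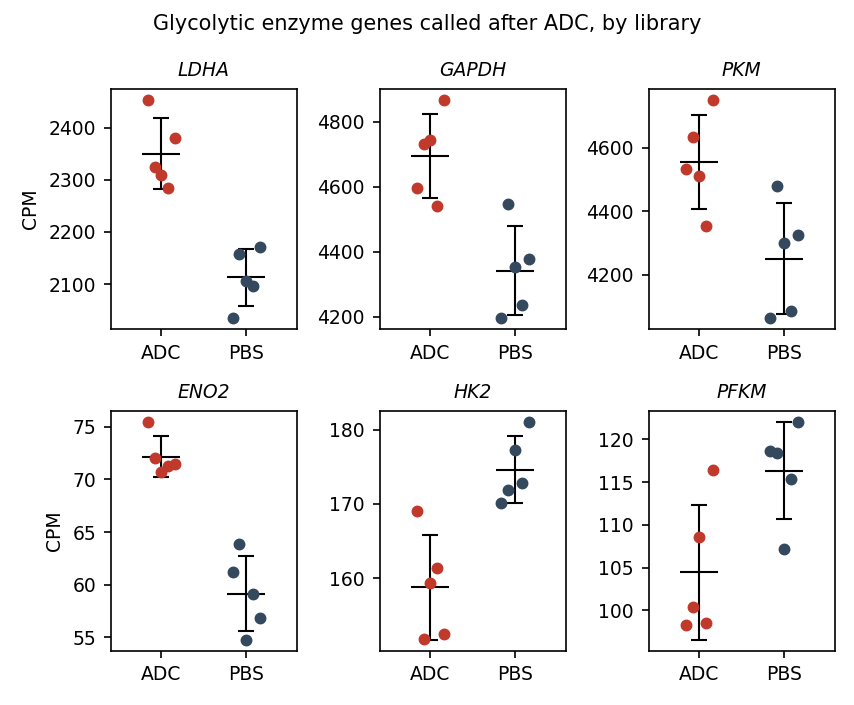
TMM-scaled CPM of the 6 called glycolytic genes in each library (points), with the mean and SD of 5 libraries, ADC left and PBS right; the axes do not start at 0. LDHA and ENO2 were separate and higher in ADC, HK2 separate and lower, and the groups of GAPDH, PKM and PFKM overlapped.

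The other glycolytic genes were not called. HK1, GPI, PFKL, PFKP, PFKFB3, TPI1, PGK1, PGAM1 and ENO1 had log2 fold changes between -0.04 and 0.05, with SE of 0.03 to 0.04, adjusted p from 0.29 to 0.99 and 95% intervals that stayed within -0.11 to 0.11. PFKFB4, a kinase-phosphatase that sets the level of fructose 2,6-bisphosphate and a HIF target, had 14.1, 7.82, 10.1, 8.76 and 10.1 CPM in ADC libraries, against 7.88, 8.86, 7.70, 9.16 and 7.57 CPM in PBS libraries. Its log2 fold change was 0.31 (SE 0.12, adjusted p = 0.079), and ADC replicate 1 was the highest library. The value was 0.16 (adjusted p = 0.38) without ADC replicate 1 and 0.39 (adjusted p = 0.025) without ADC replicate 2, the lowest and highest on leaving out any library. The 18 glycolytic genes together took 2.06% to 2.18% of counts in ADC libraries and 1.95% to 2.08% in PBS libraries, ranges that overlap.

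Related genes were also compared directly, by the log2 ratio of their counts within each library, for 11 pairs. The pairs were chosen with earlier results of these data known and use the same libraries, so they are no independent check of the calls above. The log2 ratio of ENO2 to ENO1 was -6.00 ± 0.08 in ADC and -6.31 ± 0.08 in PBS libraries (SD, n = 5 each), and the groups were separate. The exact two-sided permutation p of 0.0079 was the smallest that 5 libraries against 5 allow, and became 0.087 after adjustment over the 11 pairs, so none of the pairs passed. The ratio of PFKM to PFKL was -0.20 ± 0.09 in ADC and -0.04 ± 0.10 in PBS libraries (exact permutation p = 0.048, adjusted 0.17). That of HK2 to HK1 was -1.82 ± 0.09 in ADC and -1.73 ± 0.05 in PBS libraries (exact permutation p = 0.079, adjusted 0.17). The ratios of P4HA2 to P4HA1 (exact permutation p = 0.063) and BNIP3L to BNIP3 (exact permutation p = 0.032) were higher in ADC by 0.17 and 0.12 and also reached 0.17 after adjustment. LDHA to LDHB differed by 0.12 (exact permutation p = 0.12, adjusted 0.19), PFKFB4 to PFKFB3 by 0.27 (p = 0.11, adjusted 0.19), HIF1A to EPAS1 by 0.07 (p = 0.37) and PFKP to PFKL by 0.05 (p = 0.32), all by exact permutation. Of the exonic bases of LDHB, 33.4% also belong to AC010197.2 on the same strand. AC010197.2 had 0 to 1 counts per ADC library and 0 in PBS libraries, and the part of this overlap in the LDHB counts was not tested. EGLN3 and ALDOC had too few counts for their ratios to be read.

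**Figure D5:**
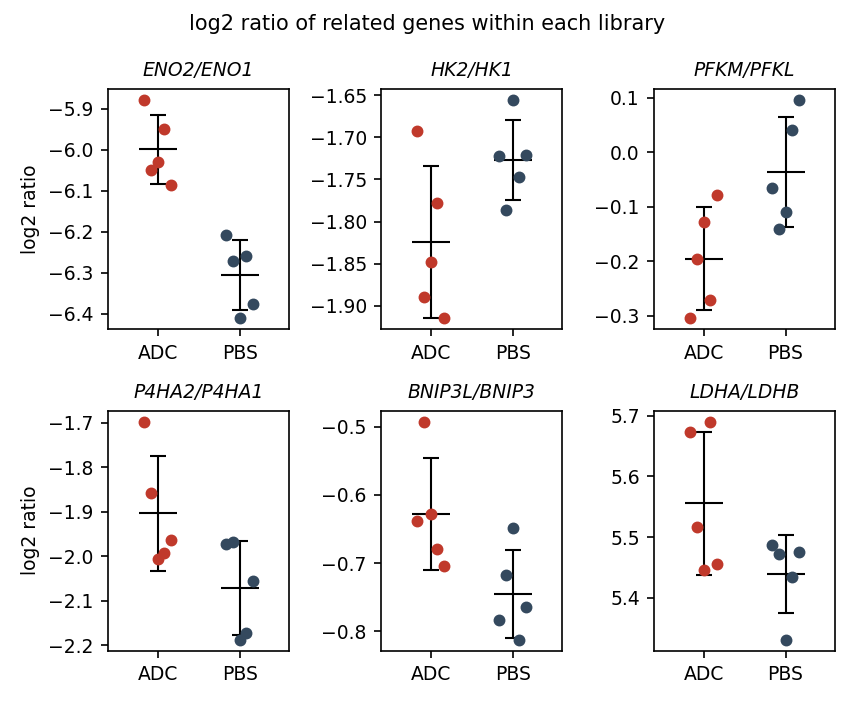
Log2 ratio of the counts of related genes within each library (points), with the mean and SD of 5 libraries, ADC left and PBS right; the axes do not start at 0. ENO2 to ENO1 is the pair whose ADC and PBS values are separate, between -6.09 and -5.88 in ADC and between -6.41 and -6.21 in PBS.

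The counts for further lists around the pathway are set beside the 20.8% of all tested genes, and the 28% of genes at 10 CPM or more, that were called. Of 14 tested components of the HIF system 5 rose, 2 fell and 7 were not called, so 50% were called. ARNT2, an alternative partner of the alpha subunits, averaged 11.8 ± 0.8 CPM in ADC and 9.25 ± 0.50 CPM in PBS libraries (log2 fold change 0.36, SE 0.09, adjusted p = 0.0051; SD, n = 5 each), and VHL rose by 0.19 (SE 0.05, adjusted p = 0.0067). HIF1AN, the asparaginyl hydroxylase that blocks HIF, averaged 84.6 ± 1.4 CPM in ADC and 97.9 ± 2.6 CPM in PBS libraries (log2 fold change -0.21, SE 0.04, adjusted p = 0.00011). ELOC, which joins VHL in its ligase, had a log2 fold change of -0.14 (SE 0.04, adjusted p = 0.0050).

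Of 28 tested further hypoxia-induced genes 10 rose, 2 fell and 16 were not called, so 42.9% were called. The secreted glycoprotein gene STC1 averaged 46.1 ± 2.5 CPM in ADC and 31.7 ± 2.3 CPM in PBS libraries (log2 fold change 0.54, SE 0.06, adjusted p = 3.0e-08), and NARF rose by 0.43 (SE 0.06, adjusted p = 1.0e-06). GYS1, the glycogen synthase, had a log2 fold change of -0.10 (SE 0.04, adjusted p = 0.043). SLC2A1, the main glucose transporter of HIF-driven glycolysis, was not called (-0.0048, SE 0.03, adjusted p = 0.94). It was singled out after its value was seen.

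Of 15 genes of pyruvate and lactate handling 3 rose, 1 fell and 11 were not called, and the 26.7% called is near the share over all genes. PDP1, the phosphatase that reactivates pyruvate dehydrogenase and so acts against PDK1, averaged 211 ± 9 CPM in ADC and 146 ± 3 CPM in PBS libraries (log2 fold change 0.53, SE 0.03, adjusted p = 5.9e-13). The lactate exporter SLC16A3 averaged 137 ± 5.5 CPM in ADC and 114 ± 8 CPM in PBS libraries (0.27, SE 0.04, adjusted p = 3.2e-05), while the related carrier SLC16A1 averaged 243 ± 11 CPM in ADC and 268 ± 5 CPM in PBS libraries (-0.14, SE 0.03, adjusted p = 0.0026; SD, n = 5 each). Of 14 genes of the pentose phosphate and glycogen routes PGM1 (0.35, SE 0.07, adjusted p = 0.00028) and PYGL (0.10, SE 0.03, adjusted p = 0.011) rose, PGM2 (-0.14, SE 0.04, adjusted p = 0.022) and UGP2 (-0.10, SE 0.04, adjusted p = 0.040) fell and 10 were not called. The 28.6% called in that list is also near the share over all genes. Of 15 other isoforms of glycolytic enzymes 6 were tested and 0 were called.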

How the data were processed

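The authors deposited whole-number counts per gene, not normalised, with symbols, positions and gene lengths. Per the submitters' processing notes HISAT2, HISAT and TopHat2 were used, without a stated role, on hg38. For the counting tool and strand setting, the sources used here say nothing. Small counts (2 to 21) were even in 65.4% to 67.3% of cases, so both mates of a pair may have been counted. Groups came from the treatment labels. All 58735 identifiers occur in GENCODE release 29, which gave exon overlap. Promoters are from RefSeq.

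Counts were tested with edgeR 4.0.16 (R 4.3.3): TMM factors, filterByExpr (minimum count 10, minimum total 15) and the quasi-likelihood test. The test was run on counts simulated from its own fit, which does not cover libraries that are not independent. The SE was derived from the log2 fold change and the F statistic, and 95% intervals span 1.96 SE on either side. Every pair of libraries in a group differed by more than counting noise, with a chi-square of 5.18 to 16.5 per degree of freedom. Nothing says that replicates were separate cultures, so p-values reflect only how these libraries vary, possibly for technical reasons. Pair ratios used a pseudocount of 0.5. Alternatives used DESeq2 1.42.0, limma 3.58.1, other scalings, filters, halved counts, a replicate block and each library left out. With halved counts 10 HIF-regulated genes and 6 glycolytic genes were called. All 35 genes are named; from each other list the called genes with the smallest adjusted p, at most 2 per direction, are named, and endothelial and meningioma markers are given as checks; some genes of these lists are not reported here. The genes, lists and pairs were chosen with earlier results of these data known.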

Additional observations from a re-analysis of the deposited data

Results flagged for a closer look

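In 6 of 70 groups of 5 values (35 genes in both groups) 1 library lay far from the other 4, its gap to the nearest exceeding 0.71 of the range; chance gives about 1 in 20. Of the 6, 3 were ADC replicate 1. P4HA2 had 24.2 CPM there, against 18.2 to 19.0 CPM in the other ADC libraries, ENO2 had 75.5 CPM, against 70.7 to 72.0 CPM, and CA9 had 0.607 CPM, against 0 in the others. EPAS1 had 34.3 CPM in PBS replicate 3, against 30.5 to 30.8 CPM in the other PBS libraries. LOX had 197 CPM in ADC replicate 3, against 210 to 212 CPM in the other ADC libraries. GPI had 332 CPM in ADC replicate 5, against 299.7 to 307 CPM in the other ADC libraries.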

How the results depend on the processing

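The 16 calls among the 32 tested genes held in all 17 alternatives, and their direction did not change. Of 544 recomputed log2 fold changes 523 kept direction and side of the threshold, 4 gained a call (HIF1A and PFKFB4, given with their values above) and 17 changed sign, all of genes not called. With library size alone the signs of GPI (0.0060), PFKL (0.022) and ENO1 (0.0042) turned, the median of all genes moved to 0.02, and 63.3% of calls were higher in ADC instead of 51.8%. PFKL was 0.0029 with a mean of at least 1 CPM and 0.0011 with the replicate block. Leaving out 1 library gave -0.00090 to 0.066 for EPAS1, -0.041 to 0.0025 for GPI, -0.022 to 0.035 for PFKL, -0.025 to 0.031 for PFKFB3, -0.035 to 0.0040 for ENO1 and -0.0062 to 0.035 for the median of glycolytic genes; the cause was not tested. The median of HIF-regulated genes ranged from 0.21, without PBS replicate 4, to 0.33. No shared effect of the replicate number was seen: same-numbered deviations correlated at -0.0072 to 0.04, and 1 of 5 ADC libraries correlated best with its own number. These values cannot show whether replicates were paired by design. The block gave 3152 calls against 3018. With 5 libraries against 5 a lone pair cannot go below an adjusted p of 0.087, so the missed threshold for ENO2 to ENO1 says nothing of stability; its difference was 0.28 to 0.33 on leaving out 1 library. The sign-flip test by number cannot go below 0.0625. CA9 and EGLN3 failed the filter on low counts and passed the threshold with no filter. ADC replicate 2, the deepest library, had no count of either.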
